A study of Mus musculus with 4 samples.

Results

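Integrins are cell surface receptors made of an alpha and a beta chain that hold cells to the extracellular matrix, and the matrix proteins studied with them here are laminins, nidogens and collagen IV, the main building blocks of basement membranes. Probes were chosen by gene name, and the rule itself uses no measured value. It takes the integrin alpha and beta chains, the laminin alpha, beta and gamma chains, both nidogens and the collagen IV chains. The rule found 64 of the 55681 probes of the array, for 45 genes. Of these, 42 genes gave a signal that could be tested, among 19618 named genes and 37369 features (named genes plus probes without a gene name) tested in all.

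The study compared 2 RNAs on each of 4 Agilent two-colour mouse arrays. Cells came from mice 2 weeks old that carried EGFP under a 2.3 kb promoter fragment of type I collagen, and both RNAs of an array were described as donor matched. Tissue was digested with enzymes and cells were sorted for the GFP signal, so both cell populations share the transgene and the gate. The RNA labelled odontoblast came from dental pulp, carried Cy5 and is given as C57BL/6. The RNA labelled calvarial osteoblast came from calvaria bone and carried Cy3. Each labelling used 250 ng of cDNA, and no array had its dyes swapped, so a dye effect and a difference between the cells cannot be told apart. The promoter fragment is active in more than 1 collagen-producing cell type, and the number of animals behind each RNA is not stated in the labels. The p-values therefore measure the spread between these 4 arrays, which may in part be technical.

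Each ratio is given as the log2 of the Cy5 signal over the Cy3 signal, so a value above 0 means more signal in the RNA labelled odontoblast. The odontoblast and osteoblast markers that were called lay on the other side from these labels. Dspp, whose product is cut into dentin matrix proteins, had a mean log2 ratio of -1.95 and was not called (adjusted p = 0.0601), and Wnt10a, expressed in odontoblasts, had one of -5.91. Ifitm5 and Pth1r, expressed in osteoblasts, had mean log2 ratios of 5.05 and 4.74. Of 6 odontoblast markers 1 was called, higher in Cy3, and of 8 osteoblast markers 2 were called, both higher in Cy5. Over all features 0.653% were called higher in Cy3 and 1.01% higher in Cy5. The uncalled markers were less uniform. Mean ratios were below 0 for 4 of the 6 odontoblast markers, while Smpd3 (1.41) and Phex (0.38) lay on the side of the labels. All 8 osteoblast markers had means above 0, but Alpl (0.05) and Sp7 (0.015) lay close to it. The channels are therefore named below by dye, and if the labels were turned every sign below would keep its channel but change its cell. A gene was called when its Benjamini-Hochberg adjusted p in limma, over all features, was under 0.05. On each array the median signal over background was 10.9 to 16.0 in Cy3 and 7.10 to 8.21 in Cy5, and the log2 ratios of array 3 had the widest spread (SD 1.21, against 0.76 to 0.94 on the others). The arrays correlated at Pearson's r of 0.30 to 0.49 over features.

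As background, integrins fall into families by what they bind. A small group of alpha chains pairs with the beta chain of Itgb1 and binds collagen, another group binds laminin, and others recognise the RGD motif of fibronectin, vitronectin and osteopontin. Laminins are trimers of an alpha, a beta and a gamma chain that assemble on the cell surface, nidogens link them to the collagen IV network, and the sheet that results lies under epithelia and around vessels, muscle and nerve. Odontoblasts and osteoblasts are matrix-secreting cells that rest on collagen-rich predentin or osteoid, and in the developing tooth a basement membrane first separates dental epithelium from the mesenchyme that gives rise to odontoblasts.

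The probe sequences that the results turn on are shown first, since a microarray value belongs to its probe. Each line gives the first 30 of the probe's 60 bases, 5′ to 3′, from the deposited files, and positions are those of the files on mm9. No annotation of that build was used here, so exon and UTR positions of the probes are not given. The first pair belongs to the called genes, Itga11 at chr9:62631667-62631726 and Lamc3 at chr2:31801996-31802055, both on the plus strand.
Itga11: gtttcatctgaacaatgtcatctgttcccc
Lamc3: ccccaggtcccagaggaactgattgtgatt

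The Itga10 probes, at chr3:96468383-96468442 and chr3:96468377-96468436 on the plus strand, start 6 bases apart and share 54 bases, so they are close to a repeat of 1 measurement.
Itga10, brightest probe: tcctggggactgtcatggtgagcaaatggt
Itga10, second probe: agtccctcctggggactgtcatggtgagca

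The Itgam and Itga6 probes are shown because the choice of probe sets the value of the gene. The brightest Itgam probe, at chr7:135261755-135261814, opens with a CA repeat, in capitals, of 20 bases. A CA repeat of at least this length, at any position in the probe, was found in 22 of 55681 probes (0.0395%).
Itgam, brightest probe: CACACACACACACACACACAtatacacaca
Itgam, second probe: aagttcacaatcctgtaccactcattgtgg
Itga6, brightest probe: gagaatgagaacctgggaggtcttgttgtt
Itga6, second probe: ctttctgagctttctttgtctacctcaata

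Of the 42 genes, 2 were called, Itga11 and Lamc3, both higher in Cy3, and 0 were called higher in Cy5. Over all features 620 of 37369 were called (1.66%), 376 higher in Cy5 (1.01%) and 244 higher in Cy3 (0.653%). At an unadjusted p under 0.05, 19 of the 42 genes (45.2%) passed, against 19% of all features. By direction, 6 of the 42 were higher in Cy5, against 10.1% of all features, and 13 of the 42 in Cy3, against 8.88%. The ratio had 1 sign on every array measured for 21 of the 42 (50%), against 30.5% of all features. It was below 0 on every array for 15 of the 42, against 14.8% of all features. For 6 of the 42 it was above 0 on every array, against 15.7% of all features. The median ratio of the 42 genes was -0.12, beside -0.00 over all features. These counts describe the list and were not tested as a set.

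**Figure D1:**
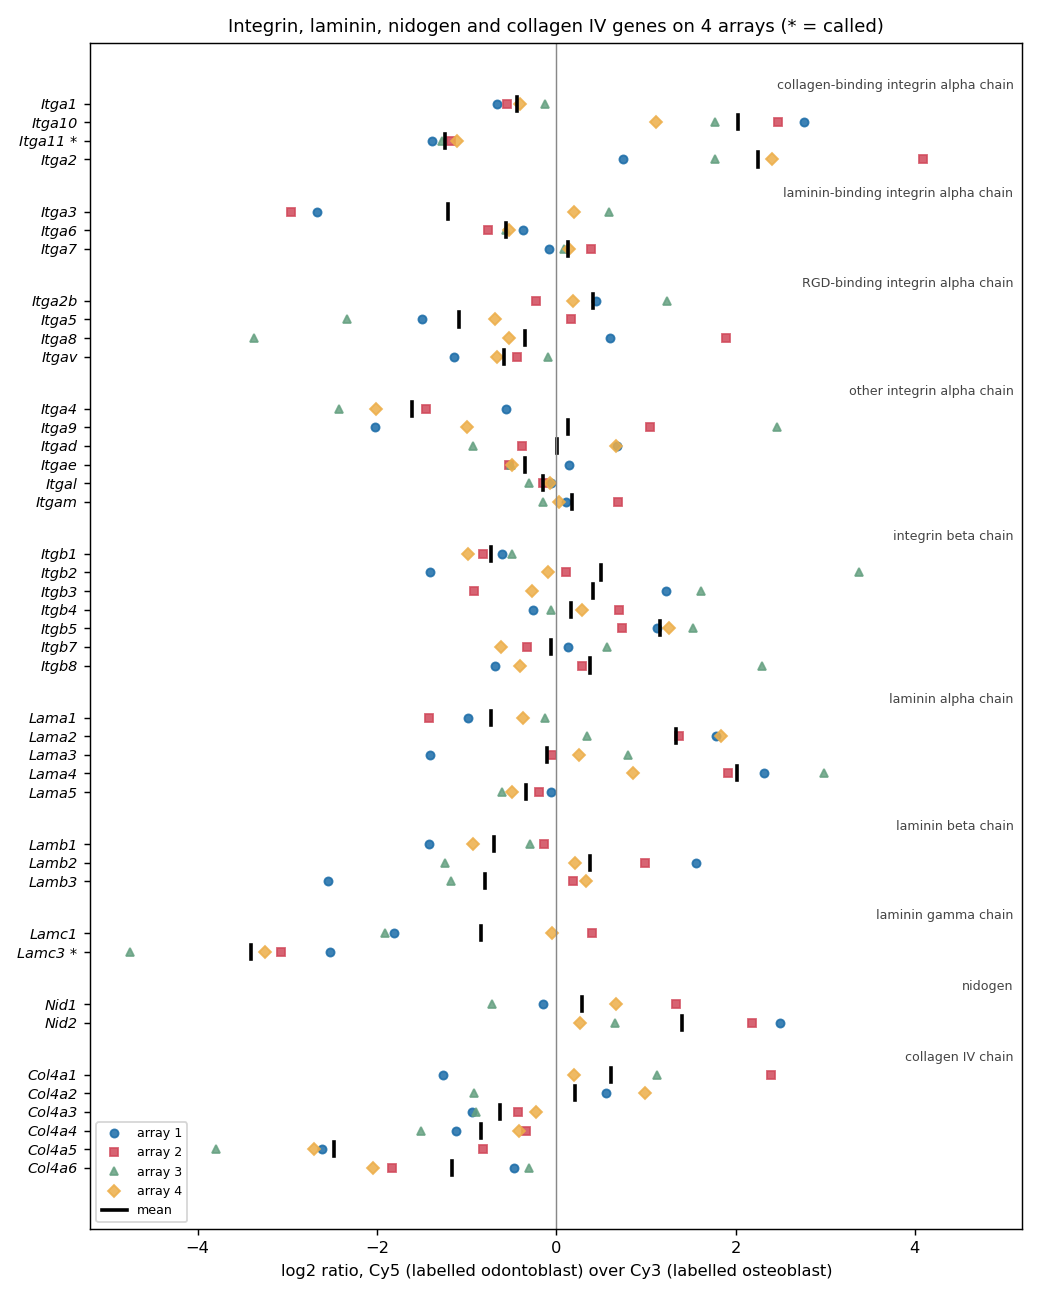
Log2 ratio of Cy5 (labelled odontoblast) over Cy3 (labelled osteoblast) of each of the 42 measured genes, grouped by role, with 1 symbol per array, a black bar for the mean and a star for a called gene. Itga11 lies between -1.39 and -1.11 and Lamc3 between -4.76 and -2.53 on the 4 arrays, while genes such as Itga8 and Itgb2 lie on both sides of 0.

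The alpha chains of collagen receptors were split. By the brightest probe, all 4 measured genes of this role had ratios of 1 sign on every array, 2 below 0 and 2 above, where 30.5% of all features had 1 sign. Itga11 encodes the alpha chain of a fibrillar collagen receptor of mesenchymal cells. Its ratios were -1.39, -1.17, -1.28 and -1.11 on arrays 1 to 4, the log2 signal of Cy3 being 15.0, 15.4, 15.4 and 15.4 and that of Cy5 13.6, 14.3, 14.1 and 14.3. The channels did not overlap, and Itga11 was 2.36-fold higher in Cy3 (log2 ratio -1.24 ± 0.16, moderated SE, n = 4, adjusted p = 0.0370 in limma). The call was lost under median centring within arrays (-0.49, adjusted p = 0.155), with the scanner software's own ratio (-1.25, adjusted p = 0.0719) and without any 1 array (adjusted p from 0.0803 to 0.168).

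Itga10 encodes a collagen receptor chain known from cartilage. Its ratios were 2.76, 2.47, 1.77 and 1.11, all above 0, with a mean of 2.03 ± 0.32 (SE, n = 4), and its adjusted p of 0.0540 missed the threshold. It passed under 4 alternatives, with adjusted p from 0.0214 to 0.0497: median centring, scaling between arrays, only probes well above background in both channels, and the mean of a gene's probes. Its second probe gave a mean ratio of 2.05. Itga2, which encodes the collagen receptor chain of platelets and epithelia, had ratios of 0.74, 4.09, 1.78 and 2.41. The mean of 2.25 ± 0.54 came with an adjusted p of 0.129 in limma, and array 2 was far above array 1. With the scanner software's ratio the mean of Itga2 was 3.11. Itga1 ratios lay between -0.66 and -0.12, with a mean of -0.43 ± 0.18 and an adjusted p of 0.272, by its brightest probe. Its second probe gave -0.10, 1.01, -1.45 and 0.31, on both sides of 0.

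**Figure D2:**
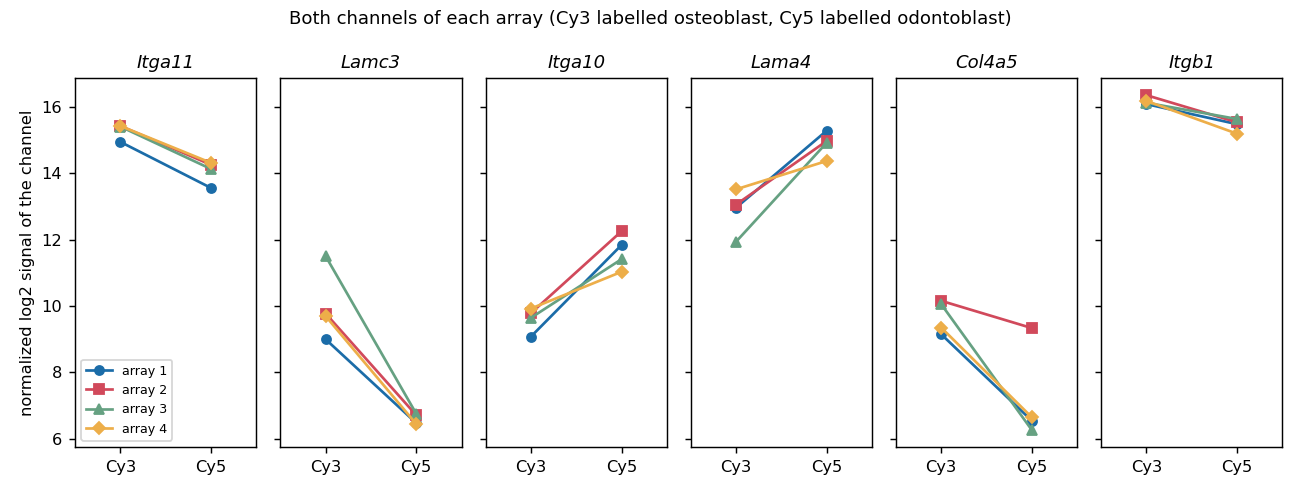
Normalized log2 signal of the Cy3 and the Cy5 channel for 6 genes, with 1 line per array. The Itga11, Lamc3, Col4a5 and Itgb1 lines slope down from Cy3 to Cy5 on every array, the Itga10 and Lama4 lines slope up, and Itga11 and Lamc3 are the called genes among them.

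None of the laminin-binding alpha chains was called. Itga6, whose protein pairs with the Itgb1 or Itgb4 chain in laminin receptors, had ratios of -0.37, -0.77, -0.57 and -0.53 by its brightest probe at chr2:71694756-71694815 (mean -0.56 ± 0.17, adjusted p = 0.180). Its second probe, at chr2:71690633-71690692, gave 0.80, 0.48, 1.20 and 0.41. The 2 probes of Itga6 thus lay on opposite sides of 0 on every array, and their mean gave 0.08. The array lists these probes under different transcript records, and whether they read the same transcripts was not tested. Itga3, a laminin receptor chain of epithelia, had ratios of -2.66, -2.95, 0.59 and 0.20. Arrays 1 and 2 went one way and arrays 3 and 4 the other (mean -1.21 ± 0.71, adjusted p = 0.410). Itga7, the laminin receptor chain of muscle, had a mean ratio of 0.13 ± 0.17.

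Among the RGD-binding alpha chains none was called either. Itgav encodes the alpha chain shared by vitronectin and osteopontin receptors. Its ratios were -1.14, -0.44, -0.09 and -0.66 by the brightest probe (mean -0.58 ± 0.23, adjusted p = 0.254), and the second probe, at chr2:83643905-83643964, gave a mean of 0.30. The sign of Itgav thus turned with the probe, and by the brightest probe it also turned under median centring (0.12). Itga5, the fibronectin receptor chain, had ratios of -1.50, 0.16, -2.34 and -0.68, with 1 array above 0 (mean -1.09 ± 0.43, adjusted p = 0.258). Itga8, whose protein binds nephronectin, ranged from -3.37 on array 3 to 1.89 on array 2. Itga2b, the platelet fibrinogen receptor chain, had a mean ratio of 0.41 ± 0.28.

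Of the 7 other alpha chains 6 could be measured and none was called. Itga4, whose protein pairs with the Itgb1 or Itgb7 chain and binds VCAM1 and fibronectin, had ratios of -0.56, -1.45, -2.42 and -2.01. All arrays were below 0, with a mean of -1.61 ± 0.34 (adjusted p = 0.10 in limma), and a second probe gave a mean of -0.79. Itga9, which encodes a receptor chain for tenascin C, ranged from -2.02 to 2.47. Itgae, the chain that binds E-cadherin on intraepithelial lymphocytes, had ratios of 0.15, -0.53, -0.51 and -0.50, of which array 1 stood apart.

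None of the leukocyte integrins was called. Itgam, an alpha chain of macrophages and neutrophils, had ratios of 0.11, 0.69, -0.15 and 0.03 by the brightest probe, the one with the CA repeat. Its mean was 0.17 ± 0.21 (adjusted p = 0.684), while the other kept probes gave means of 1.42 and 0.66. The second probe was above 0 on every array (1.05, 1.33, 2.61 and 0.68), with an adjusted p of 0.133 in an alternative chosen after the data were seen. Itgb2, the beta chain that pairs with Itgam, had ratios of -1.41, 0.11, 3.38 and -0.09, and only array 3 was far above 0. Itgal and Itgad had mean ratios of -0.15 and 0.01, and Itgax was not well above background in either channel on any array. In the same RNAs, 2 of 12 macrophage and leukocyte markers were called, Lyz2 and Laptm5, both higher in Cy5. Of all features 1.01% were called higher in Cy5. The mean log2 ratio of the marker list was 1.07, 0.94, 1.65 and 0.85 on arrays 1 to 4. The list was not uniform: 7 means lay above 0 and 5 below, Cd79a (-2.57) and Csf1r (-0.39) among the latter, with a median of 0.56. The part of such cells in the integrin ratios was not tested, and in bulk RNA fewer cells of a type and less RNA per cell cannot be told apart.

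**Figure D3:**
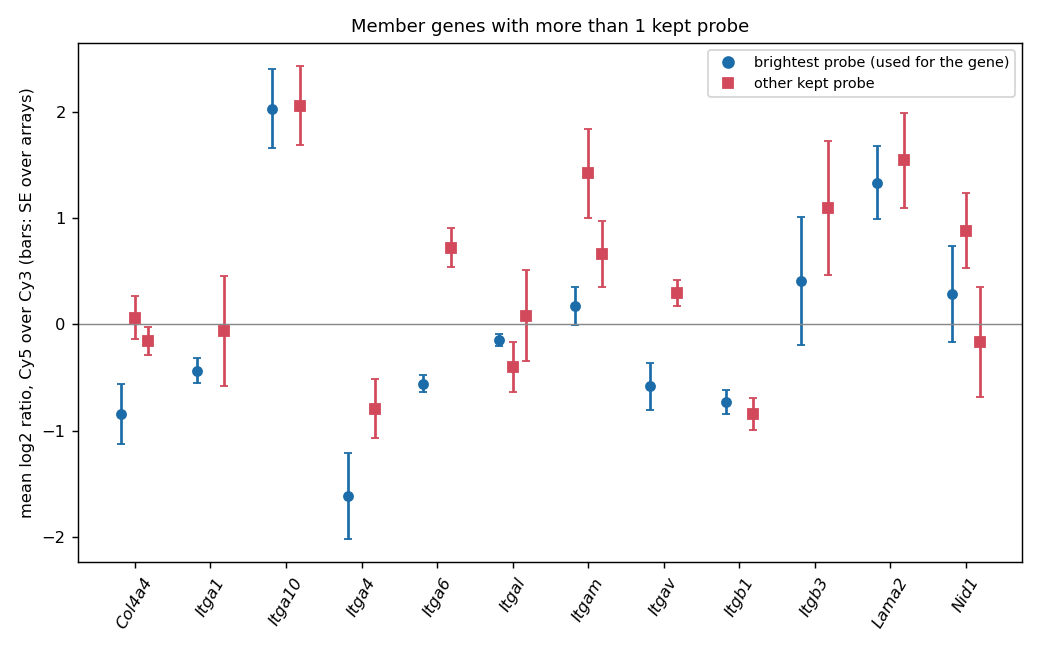
Mean log2 ratio with its SE over arrays for each kept probe of the 12 genes with more than 1 kept probe. Both probes of Itga10, of Itgb1 and of Lama2 lie close together, whereas Itga6, Itgav, Itgal, Nid1 and Col4a4 have probes on opposite sides of 0.

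Itgb1 encodes the beta chain shared by the collagen and laminin receptors and by the main fibronectin receptor. Its ratios were -0.61, -0.82, -0.49 and -0.99, below 0 on all 4 arrays by both probes (means -0.73 ± 0.18 and -0.84), and the adjusted p was 0.131. Median centring turned its sign (0.27). Itgb5, a partner of Itgav in vitronectin binding, had ratios of 1.13, 0.73, 1.52 and 1.26 (mean 1.16 ± 0.20, adjusted p = 0.0667). All 4 arrays of Itgb5 were above 0, and among the alternatives it passed the threshold of 0.05 under median centring (adjusted p = 0.0263).

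The remaining beta chains had no common direction. Itgb3, which pairs with Itgav in osteoclasts and with Itga2b in platelets, had a mean ratio of 0.41 ± 0.47 by its brightest probe and ranged from -0.92 to 1.61. Its second probe gave 1.13, 0.57, 2.82 and -0.14 (mean 1.09), also on both sides of 0. Itgb4, the hemidesmosome chain, had a mean of 0.17 ± 0.22. Itgb8, which takes part in activating TGF-beta, ranged from -0.68 to 2.29, and Itgb7, found on lymphocytes, from -0.62 to 0.56. The probes of Itgb6, an epithelial chain, were well above background on at most 1 array and gave no test.

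Lamc3 had the largest ratio of all 42 genes. It encodes a less common laminin gamma chain, which can take the place of Lamc1 in the trimer. Its ratios were -2.53, -3.07, -4.76 and -3.25, the log2 signal of Cy3 being 9.0, 9.78, 11.5 and 9.70 and that of Cy5 6.47, 6.71, 6.75 and 6.44. Every Cy3 value lay above every Cy5 value, and the probe was well above background on 4 arrays in Cy3 and 3 in Cy5. Lamc3 was 10.6-fold higher in Cy3 (log2 ratio -3.40 ± 0.39, SE, n = 4, adjusted p = 0.0276 in limma). With the software's ratio the mean was -4.84. The call was lost without array 1 (adjusted p = 0.0885), array 2 (0.116) or array 4 (0.136), while without array 3 it remained (-2.95, adjusted p = 0.0346).

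Beside Lamc3, 2 of 8 markers of dental epithelium were called, Odam and Ambn, both higher in Cy3, against 0.653% of all features. That list's mean log2 ratio was -1.46, -1.43, -1.11 and -1.64 on the 4 arrays and its median -0.86. Odam (-5.00) and Ambn (-3.05) had the largest ratios, whereas Krt14 (-0.10), Krt5 (-0.14) and Epcam (-0.03) lay near 0 and Amelx (0.26) above it. The list's part in the Lamc3 ratio was not tested. Lamb3, a beta chain of epithelial laminins, had a mean ratio of -0.80 ± 0.52 with both signs. Lamc1, the gamma chain of most laminins, had ratios of -1.81, 0.40, -1.91 and -0.04 (mean -0.84 ± 0.47, adjusted p = 0.390).

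Laminin alpha chains had ratios on both sides of 0, with none called. Lama4, an alpha chain of vessels and mesenchyme, had ratios of 2.32, 1.92, 2.99 and 0.86. Its Cy5 signal lay above its Cy3 signal on every array (mean ratio 2.02 ± 0.37, adjusted p = 0.0753), and scaling between arrays (adjusted p = 0.0443) and median centring (0.0228) brought it past the threshold. Lama2, the alpha chain of muscle and nerve basement membranes, had ratios of 1.78, 1.37, 0.34 and 1.84 (mean 1.33 ± 0.30, adjusted p = 0.116), and its second probe gave a mean of 1.54. Array 3 was the lowest for Lama2 and the highest for Lama4. Endothelial markers were not called in either direction (0 of 10 measured), against 1.66% of all features. Their median ratio was 0.05 and their list mean was 0.06, 0.23, -0.65 and 0.28 on arrays 1 to 4. The part of endothelial cells in the Lama4 and Lama2 ratios was not tested.

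Lama1 and Lama5, alpha chains of epithelial basement membranes, were below 0 on every array, with means of -0.73 ± 0.27 (adjusted p = 0.236) and -0.34 ± 0.18 (adjusted p = 0.380). The software's ratio gave -1.36 for Lama1. Lama3 had a mean of -0.10 ± 0.38 with both signs. Lamb1 had ratios of -1.42, -0.14, -0.30 and -0.93 (mean -0.70 ± 0.27, adjusted p = 0.253). Lamb2, the beta chain that takes the place of Lamb1 in synapses and kidney filters, had ratios of 1.56, 0.99, -1.25 and 0.21 (mean 0.38 ± 0.48, adjusted p = 0.701). The beta chains thus showed no shared direction, and array 3 alone was below 0 for Lamb2, whose mean was 0.997 under median centring.

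Nidogens bridge laminin and collagen IV. Nid2 had ratios of 2.49, 2.18, 0.65 and 0.26, all above 0, with arrays 1 and 2 well above arrays 3 and 4 (mean 1.40 ± 0.44, adjusted p = 0.190). Nid1 had ratios of -0.15, 1.34, -0.71 and 0.67 by its brightest probe (mean 0.28 ± 0.37, adjusted p = 0.709). The means of its 3 probes ran from -0.17 to 0.88, so neither size nor sign of a Nid1 difference was settled by these arrays.

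The 6 collagen IV genes lie in head-to-head pairs, Col4a1 with Col4a2, Col4a3 with Col4a4 and Col4a5 with Col4a6, and the proteins form the network of basement membranes. None was called, and 4 of the 6 had ratios below 0 on every array, as did 14.8% of all features. Col4a5, named in full after its values were seen, had ratios of -2.61, -0.82, -3.80 and -2.71 and a mean of -2.48 ± 0.48 (adjusted p = 0.0868), or -3.69 with the software's ratio (adjusted p = 0.131). Its Cy5 signal was well above background on 3 of 4 arrays, and array 2 stood nearest to 0. Col4a6 had ratios of -0.47, -1.84, -0.30 and -2.04 (mean -1.16 ± 0.37, adjusted p = 0.194). Within this pair the arrays did not rank alike, array 3 being the lowest for Col4a5 and the nearest to 0 for Col4a6.

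Col4a4 had ratios of -1.12, -0.33, -1.51 and -0.42 by its brightest probe (mean -0.84 ± 0.26, adjusted p = 0.186), while its other probes gave means of -0.16 and 0.06. Its partner Col4a3 lay between -0.94 and -0.23 (mean -0.63 ± 0.20, adjusted p = 0.201). The chains of the common collagen IV network, Col4a1 and Col4a2, had both signs. Col4a1 ranged from -1.27 to 2.39 (mean 0.61 ± 0.59, adjusted p = 0.610), and Col4a2, missing on array 2 because its spot carried an outlier flag, from -0.92 to 0.99 on the other arrays (mean 0.21 ± 0.44, n = 3, adjusted p = 0.832). The Col4a1 probe was dim (mean log2 intensity 8.40, against 13.3 for Col4a2). Its Cy3 signal was well above background on 3 of 4 arrays. The deposited value table gave 0.81 for Col4a2, but there the flagged spot of array 2 was not set to missing, so the 2 means cover different arrays.

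Other genes of the same pathway came from 4 lists. Of 93 measured genes 6 were called, 4 higher in Cy5 and 2 higher in Cy3. Over all features 1.66% were called, 1.01% higher in Cy5 and 0.653% higher in Cy3. Among 23 other integrin ligands 3 were called, all higher in Cy5, with a list median of 0.39. Tnc, the matrix glycoprotein tenascin C, had ratios of 3.31, 4.98, 4.88 and 3.78 (mean 4.24 ± 0.34, adjusted p = 0.0141). Ccn3, a matricellular ligand, had a mean of 3.92 ± 0.36 (adjusted p = 0.0175) and was well above background in Cy3 on 2 arrays, so its size is uncertain, and the software's ratio gave 5.62. Edil3, an RGD ligand of the Itgav receptors, had ratios of 1.28, 2.04, 1.76 and 1.24 (mean 1.58 ± 0.21, adjusted p = 0.0382), or a mean of 2.81 with the software's ratio. All 3 lay above 0 on every array. Vcam1, a ligand of the Itga4 receptor, ranged from -0.96 to 6.72 and was not called (mean 3.18 ± 1.20, adjusted p = 0.244).

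Among 23 other basement membrane components 1 was called in each direction, with a list median of 0.82. Of all features 1.01% were called higher in Cy5 and 0.653% higher in Cy3. Fn1, fibronectin, had ratios of 4.84, 5.15, 1.95 and 3.48 (mean 3.85 ± 0.57, adjusted p = 0.0474). Tinagl1, a secreted matrix protein, had ratios of -3.32, -4.56, -5.48 and -4.28 (mean -4.41 ± 0.36, adjusted p = 0.0144) and was 21.3-fold higher in Cy3. Both were far from 0 on every array, in opposite directions.

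Of 28 focal adhesion and integrin adaptor genes 1 was called, against 1.66% of all features, with a list median of -0.08. Parvb encodes beta-parvin, which joins integrin-linked kinase to actin. Its ratios were -3.19, -2.03, -1.68 and -2.99 (mean -2.47 ± 0.31, adjusted p = 0.0348), below 0 on all 4 arrays. Actn1, alpha-actinin, had a mean of -1.06 ± 0.19 and missed the threshold (adjusted p = 0.0708), and its mean was -0.19 under median centring. None of 19 non-integrin receptors of laminin or collagen was called, with a list median of 0.33. Sgcb, a sarcoglycan of the dystrophin complex, had a mean ratio of 0.95 ± 0.18 and an adjusted p of 0.0807.

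All 6 calls in these lists were lost without array 1, array 2 or array 4, while without array 3 Tnc, Ccn3, Fn1 and Tinagl1 remained called. Fn1 and Parvb also lost their call with the scanner software's ratio, the deposited value table and no filter on dim probes. Fn1 lost it with scaling between arrays as well (3.97, adjusted p = 0.0543), and Parvb with the mean of its probes (-1.65, adjusted p = 0.123).

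**Figure D4:**
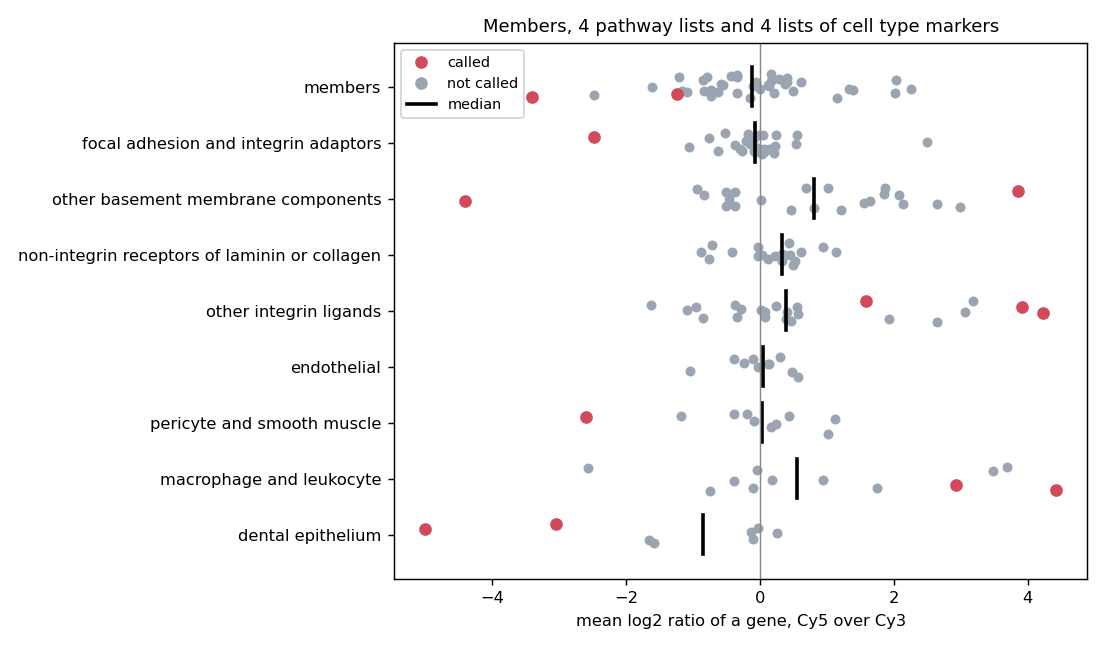
Mean log2 ratio of Cy5 over Cy3 for each gene of the integrin and basement membrane families (members), of 4 pathway lists and of 4 lists of cell type markers, with called genes in red and the list median as a black bar. The medians lie at -0.12 for the 42 genes, 0.82 for other basement membrane components and -0.08 for the adaptors, and most genes of each list are not called.

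The normalization bore on bright probes. Median centring within arrays, in place of loess, put the median ratio of all features at 0.16. It called 6 of the 42 genes (Itga10, Itgam, Itgb5, Lama2 and Lama4 higher in Cy5, Lamc3 higher in Cy3) and 1404 of all named genes, 1163 of them higher in Cy5, where loess called 422, with 251 higher in Cy5. Relative to the shift of all features, the ratios of Itgb1, Itgav and Itgam, read from bright probes, still moved upward. Lamc3, a dim gene, moved from -3.40 to -3.24. Itgam was read and called here by its probe with the CA repeat (mean log2 intensity 16.1). Its other kept probes were dimmer (10.2 and 9.44).

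**Figure D5:**
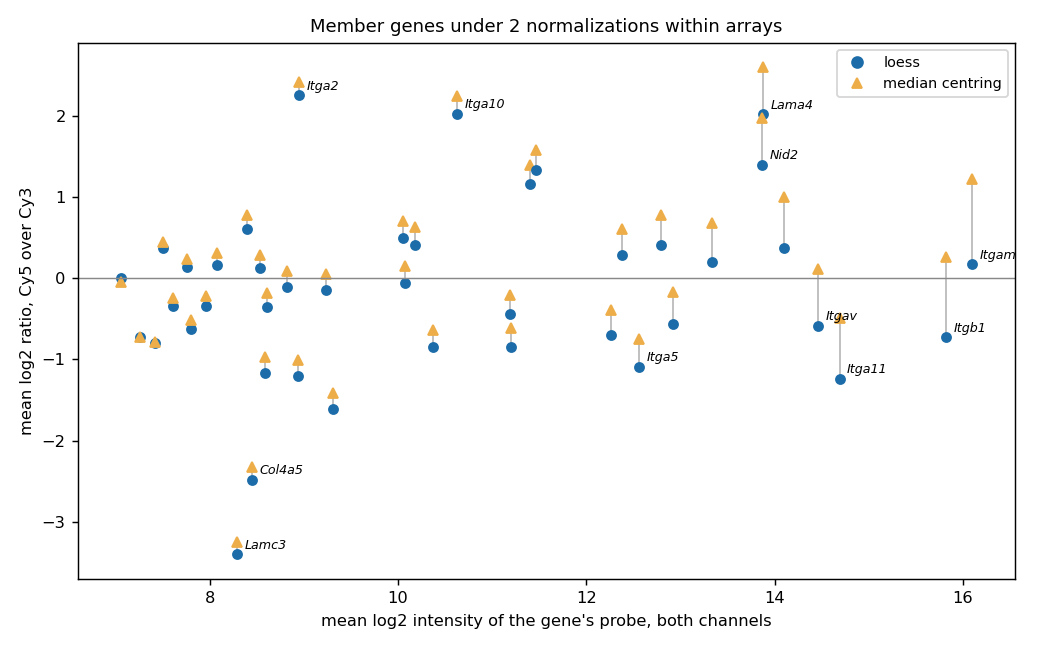
Mean log2 ratio of each of the 42 genes after loess (circles) and after median centring (triangles), against the mean log2 intensity of its probe in both channels. Grey lines join the values of a gene and are longest at high intensity, where Itgb1 goes from -0.73 to 0.27 and Itga11 from -1.24 to -0.49.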

How the data were processed

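Per the file headers, the authors scanned the 4 arrays on 1 slide in 1 scan with Agilent Feature Extraction 10.7.3.1. The deposited files hold, for 62976 spots, the mean intensity and median background intensity of each channel, flags as other values, and the software's log10 ratio, also held by the deposited value table (99.5% of probes within 0.001 log2, r of 1.00, column medians of 0). Later steps by the authors are not given in the sources used here.

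In limma 3.58.1 (R 4.3.3), background was corrected with normexp (offset 50) and arrays normalized by loess, with 3671 control spots at weight 0. Outlier flags (949 spot values) were set to missing, 0 spots were saturated and spots of a probe were averaged. Of 55681 probes 44239 were kept, those well above background in 1 channel on at least 3 of 4 arrays. Names came from a RefSeq table of GRCm38.p6 by accession (27235 probes), current symbol (3581) or older name (1986), and 22879 probes had none. The brightest probe stood for a gene. Mean log2 ratios over the 4 arrays, 1 group, were tested against 0 with lmFit and eBayes, two-sided, with Benjamini-Hochberg adjustment. The fit was also run on simulated data with independent errors, which cannot show a dye effect or an effect shared by arrays.

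Every array's ratio is given for called members, the 2 largest ratios per role among probes well above background throughout, and genes whose probes differ by over 1. From other lists, called genes and the 2 largest are named. Some genes that these rules pick are not reported here. Members and lists were chosen with earlier results of these data known. Alternatives were no background correction, median centring, scaling, the software's ratios, other filters, probe means, trended robust eBayes, a threshold of 0.1 and leaving out each array.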

Additional observations from a re-analysis of the deposited data

Results flagged for a closer look

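Of 51 genes tested for a single array far from the rest, 1 was picked out: Itgae, with a log2 ratio of 0.15 on array 1 against -0.53, -0.51 and -0.50 on the others. The gap of array 1 took up 0.955 of the whole range, above Dixon's 95% critical value for 4 arrays. By chance about 1 in 20 genes would be picked out this way.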

How the results depend on the processing

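The 4 arrays set the precision. The test was paired, since it used the ratio of the 2 RNAs on each array, and all arrays form 1 group. The count of called genes was 422 of all named genes, 2 of the 42 and 6 of the pathway lists. At an adjusted p under 0.10 these were 978, 6 and 15, and with median centring 1404, 6 and 17. Scaling between arrays gave 478 of all named genes, 4 of the 42 and 8 of the pathway lists. The software's ratio and the deposited value table each gave 272 of all genes and 1 of the 42 (Lamc3). Leaving out 1 array gave 0 to 180, 0 to 1 and 0 to 4. Calls were 0 without array 1 or array 2 in all 3 counts, where 3164 and 3385 genes, 12 and 15 of the 42 and 29 and 27 of the pathway genes had an unadjusted p under 0.05 in limma. Without array 4 there were 30 calls over all genes and 0 in the other counts.

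Itgad, Itgb8, Lamb3, Lamc3, Col4a1, Col4a5, Ccn3 and Edil3 gave no value when both channels had to be well above background on all arrays. Of the 42 genes 27 kept their sign under every alternative run. Median centring turned Itgav (0.12), Itgal (0.059), Itgb1 (0.27), Itgb7 (0.16), Lama3 (0.092) and Itgad (-0.042). Itgad also turned without background correction (-0.015) and with the software's ratio or the deposited table (-0.10 each), and the mean of probes turned Itga6 (0.083). Leaving out 1 array turned Itgad (-0.22 to 0.32), Lama3 (-0.40 to 0.33), Lamb2 (-0.015 to 0.92), Itga9 (-0.66 to 0.84), Itgb4 (-0.010 to 0.31), Itgb7 (-0.27 to 0.12), Nid1 (-0.066 to 0.62), Itga8 (-1.10 to 0.66), Itgb2 (-0.46 to 1.13), Itgb8 (-0.27 to 0.73) and Col4a2 (-0.18 to 0.77). The cause was not tested.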
